A study of Mus musculus with 8 samples.

Results

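The genes described here are 10 genes of mouse chromosome 1, the chromosome that carries Il10, read in whole colon with and without a working Il10 gene. They are Gas5, Tor3a, Qsox1, Btg2, Acbd6, Arpc5, Nr5a2, Ikbke, Ramp1 and Twist2, and they were chosen because they differed between Il10-null and wild-type colon of the strain C3H/HeJBir. All probe sets annotated to them were taken, 16 of the 12422 on the array, or 10 of its 8251 named genes. Of the 16 probe sets, 13 passed the filter on low values and every gene kept at least 1. Acbd6 and 1 of 2 Nr5a2 probe sets lay close above the filter of 37.0, with means of 41.7 and 39.0 over the arrays. The 8 arrays were hybridised with total RNA of colon, 1 array for each pool of 4 or 5 animals (7 µg of RNA from each), 2 pools for each of 4 groups: C3H/HeJBir-Il10tm1Cgn, C3H/HeJBir, C57BL/6J-Il10tm1Cgn and C57BL/6J. The lines with the targeted allele Il10tm1Cgn are called Il10-null below and the others wild type. An age, 4 weeks, is given for 1 pool only (sample 2 of C57BL/6J wild type), and the sex of the animals and the number of backcrosses of the null lines were not stated in the labels. Since the members were chosen on the C3H/HeJBir contrast, its values are given as a description without a test, and so are the comparisons that share its arrays.

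A targeted allele is made in embryonic stem cells of 1 strain and moved into other strains by repeated crossing. The DNA on both sides of the target travels with it, so a null line can differ from its wild type at neighbouring genes that have nothing to do with the lost function. Interleukin 10 itself is a cytokine that restrains inflammation, and Il10-null mice are a standard model of colitis, so genes can also differ because the tissue reacts. Genotype and flanking DNA go together in these lines, and their parts in a difference cannot be told apart by the design. What can be read is whether the Il10-null pools of C3H/HeJBir stood at the level of their own wild type, at that of C57BL/6J wild type, or outside both.

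In the gene order of the RefSeq annotation of chromosome 1, which lists 2978 genes, the members were spread widely, and only some lay near Il10. Ikbke stood 9 places after Il10 and Btg2 93 places after it. Nr5a2 followed at 178, Arpc5 at 322, Acbd6 at 387, Qsox1 at 389, Tor3a at 409 and Gas5 at 472 places. Ramp1 and Twist2 lay on the other side, 411 and 394 places before Il10. Acbd6, Qsox1 and Tor3a thus formed a group of near neighbours in this order, with Gas5 beyond them. Tor1aip2, not a member, lay inside the group at 397 places and differed by only 0.02 in C3H/HeJBir. Places count annotated genes and are not distances in bases. The promoter windows of Ramp1, Ikbke and Gas5 began at bases 91179572, 131279514 and 161034916, so by bases Gas5 lay closer to Ikbke than Ramp1 did.

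Gas5 and Btg2 had the largest differences upward and downward among probe sets with a mean above the stricter filter of 88.0, and their promoters are shown because both hold the same motif. RefSeq promoters (250 bases before to 50 after the start, build GRCm38.p6, a C57BL/6J sequence) were found for 9 of the 10 genes, 11 promoters in all. Searched on both strands, the letters TGACGTCA of the cyclic AMP response element were in 2 of these 11, and in 1.79% of all 32851 promoters of the same length. The capitals mark that element, which reads the same on both strands and overlaps no other motif searched. The first promoter is that of the downstream of 2 annotated Gas5 starts, at chr1:161034916-161035215 on the plus strand, and the second that of Btg2, at chr1:134079106-134079405 on the minus strand.
Gas5: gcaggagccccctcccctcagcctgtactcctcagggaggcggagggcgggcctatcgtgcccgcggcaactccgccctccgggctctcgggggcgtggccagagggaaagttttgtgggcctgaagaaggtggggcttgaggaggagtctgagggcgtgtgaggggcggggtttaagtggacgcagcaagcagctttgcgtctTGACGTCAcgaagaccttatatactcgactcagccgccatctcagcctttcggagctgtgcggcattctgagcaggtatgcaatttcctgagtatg
Btg2: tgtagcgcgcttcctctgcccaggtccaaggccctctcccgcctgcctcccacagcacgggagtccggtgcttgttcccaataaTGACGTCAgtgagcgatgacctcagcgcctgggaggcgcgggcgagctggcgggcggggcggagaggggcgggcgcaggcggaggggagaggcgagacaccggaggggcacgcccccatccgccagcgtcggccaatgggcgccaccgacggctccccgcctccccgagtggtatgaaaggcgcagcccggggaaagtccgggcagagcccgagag
The letters TTCNNNGAA of STAT sites (8.30% of all promoters), an interferon-stimulated response element (3.44%) and an NF-kB site (0.155%), searched in the same way, were in none of the 11 windows.

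Median intensity ran from 50.1 to 62.2 over the 8 arrays, and having 2 arrays for each group limits the precision. The sample 1 Il10-null pool of C3H/HeJBir correlated least with the others (mean Spearman coefficient across probe sets 0.915, where the remaining pools had 0.931 to 0.945). Exocrine pancreas markers were highest in it (8 tested members, summed intensity 5197, against 1358 to 3599 in the other 7 pools). Xist, the RNA of the inactive X chromosome of females, read 243 to 452 in every sample 1 pool but only 2.84 to 12.9 in every sample 2 pool. By this marker the sample 1 pools held female tissue and the sample 2 pools little or none. Sex thus went with sample number in every group, and the 2 pools of a group differed in it. The Il10-null and the wild-type pools of sample 1 were hybridised on different days, and all sample 2 pools on 1 day. The defining markers of colon epithelium were bright throughout: Car1, a carbonic anhydrase, read 6956 to 8533 and Lgals4, a galectin, 9318 to 11456. Il10 itself, read by 1 probe set below the filter, gave 28.3 and 35.4 in Il10-null C3H/HeJBir pools against 5.43 and 10.9 in C3H/HeJBir wild type, and 51.7 and 22.0 in Il10-null C57BL/6J pools against 9.70 and 7.34 in C57BL/6J wild type. The position of its probes within the gene was not known, so it checks no label.

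**Figure D1:**
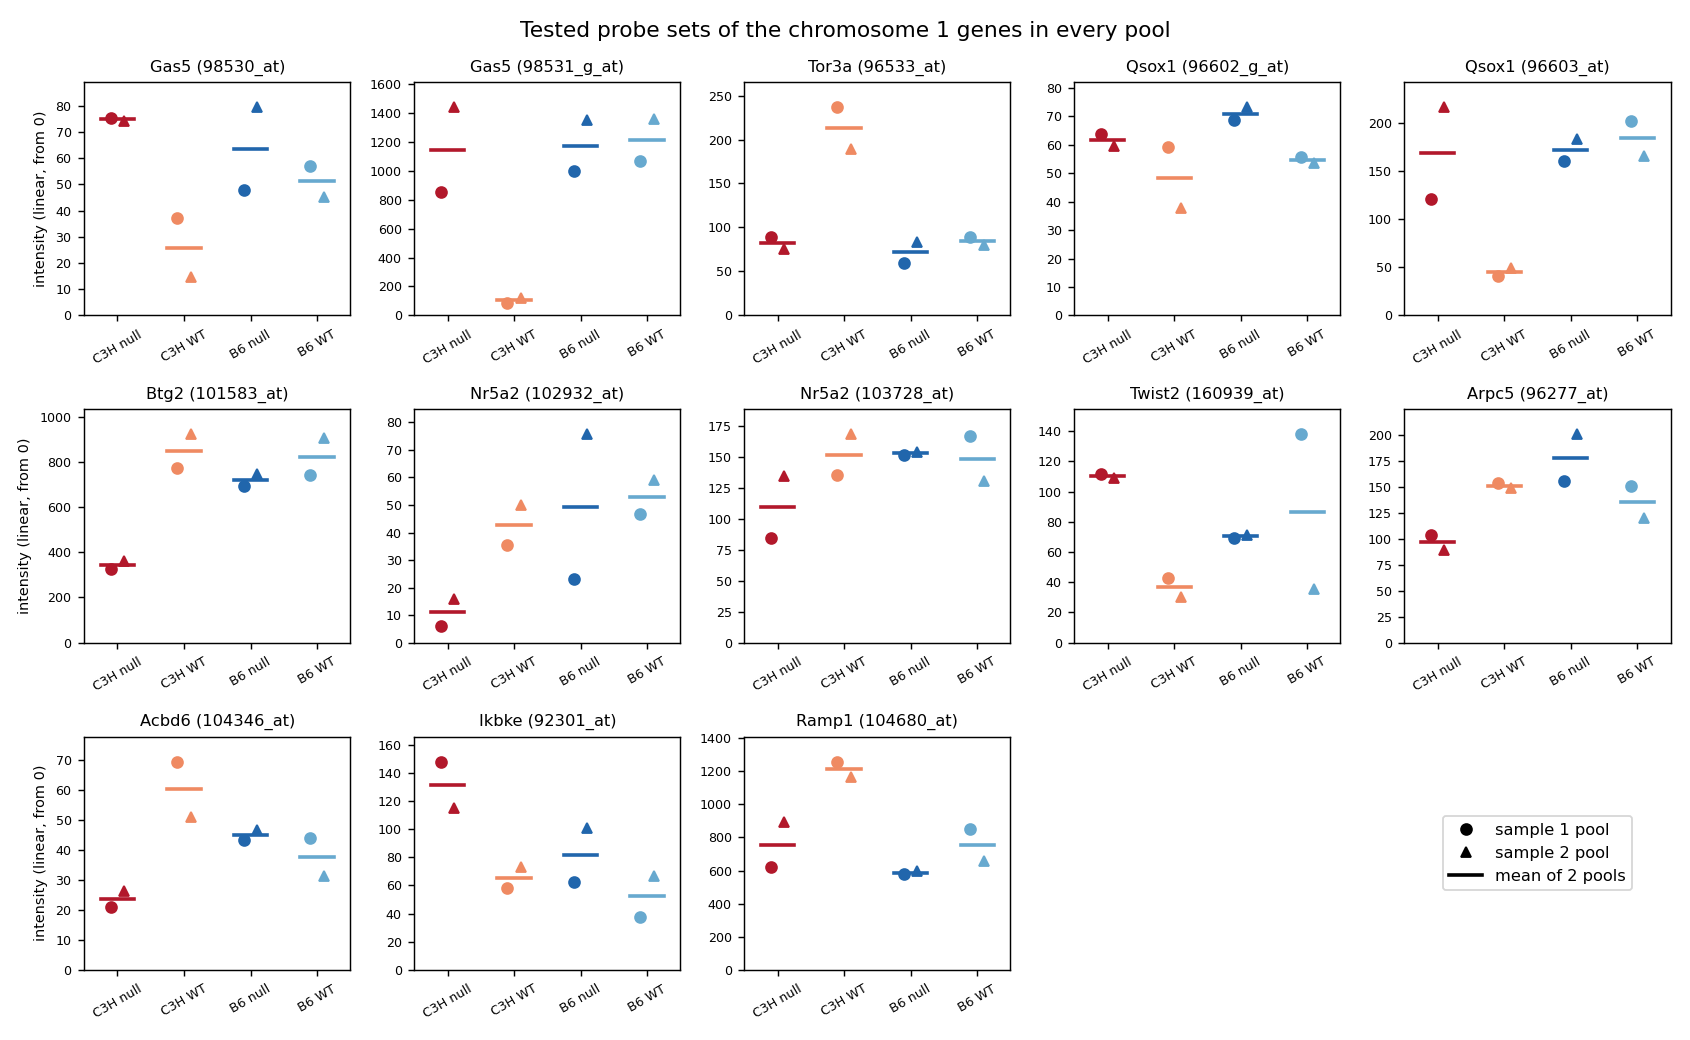
Intensity of the 13 tested probe sets of the 10 genes in every pool, on linear axes from 0 (C3H, C3H/HeJBir; B6, C57BL/6J; null, Il10-null; WT, wild type; circles, sample 1 pools; triangles, sample 2 pools; bars, mean of 2 pools). Gas5 (98531_g_at), Qsox1 (96603_at) and Tor3a (96533_at) in Il10-null C3H/HeJBir pools sit at the level of both C57BL/6J groups and apart from C3H/HeJBir wild type, while Btg2 is low in Il10-null C3H/HeJBir pools alone.

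Gas5 is a noncoding RNA whose introns carry small nucleolar RNAs and whose spliced transcript is known to build up when growth stops. Its brightest probe set (98531_g_at) read 855 and 1439.7 in Il10-null C3H/HeJBir pools, against 86.4 and 119.6 in C3H/HeJBir wild type. It read 998 and 1351 in Il10-null C57BL/6J pools and 1065 and 1362 in C57BL/6J wild type. The 2 C3H/HeJBir wild-type pools were low and the other 6 pools overlapped. Il10-null C3H/HeJBir pools thus differed from their own wild type by a log2 of 3.31 ± 0.33 (SE of the limma fit, n = 2 pools each), or 9.93-fold, and from C57BL/6J wild type by -0.12 ± 0.33, with a 95% interval from -0.86 to 0.63. The first difference was 3.15 between the sample 1 pools and 3.47 between the sample 2 pools, which were hybridised on 1 day.

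A second, dimmer probe set of Gas5 (98530_at) had the same low group. It read 75.4 and 74.3 in Il10-null C3H/HeJBir pools against 37.1 and 14.6 in C3H/HeJBir wild type, and 47.8 and 79.4 in Il10-null C57BL/6J pools against 57.1 and 45.2 in C57BL/6J wild type. The C3H/HeJBir difference was 1.29 ± 0.35 on the log2 scale, smaller than that of the brightest probe set, and ranged from 0.69 to 1.74 over the other settings tried. The third, 101885_at, was not tested and read between 6.24 and 20.4 in all pools, with a difference of -0.17 in the other direction. The 10 tested snoRNA host genes listed beside Gas5 did not share its difference. Their median log2 difference, C3H/HeJBir Il10-null minus wild type, was 0.06, against -0.01 over all 7454 tested probe sets, and 0 passed. Ncl, nucleolin, differed by 0.51 and Snhg5, another snoRNA host, by 0.39.

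Qsox1 encodes a sulfhydryl oxidase that forms disulfide bonds in proteins on their way out of the cell. Probe set 96603_at read 121 and 216 in Il10-null C3H/HeJBir pools, against 41.1 and 49.6 in C3H/HeJBir wild type. It read 160.2 and 183 in Il10-null C57BL/6J pools and 202 and 166 in C57BL/6J wild type. Again only the C3H/HeJBir wild-type pools stood apart, below the other 6. The C3H/HeJBir difference was 1.63 ± 0.30 on the log2 scale, and that from C57BL/6J wild type was -0.16 ± 0.30 (95% interval -0.85 to 0.52). The other tested probe set, 96602_g_at, did not have this pattern: it read 63.9 and 59.7 in Il10-null C3H/HeJBir pools and 59.1 and 37.7 in C3H/HeJBir wild type, a log2 difference of 0.32 ± 0.25 that was 0.05 without the sample 2 wild-type pool and 0.58 without the sample 1 one. The untested 96601_at ranged from 5.11 to 52.1. Of 9 tested genes of disulfide formation in the endoplasmic reticulum, 0 passed in the C3H/HeJBir comparison, with a median of 0.05. P4hb, protein disulfide isomerase, differed by -0.33 and Ero1a, its oxidase, by 0.29.

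Tor3a is an ATPase of the torsin family in the endoplasmic reticulum and is known to be induced by interferon. It read 89.7 and 75.3 in Il10-null C3H/HeJBir pools, against 236.6 and 189.6 in C3H/HeJBir wild type. It read 59.8 and 83.9 in Il10-null C57BL/6J pools and 89.6 and 80.3 in C57BL/6J wild type. The wild-type pools of C3H/HeJBir were the high ones here, and the other 6 overlapped. The C3H/HeJBir difference was -1.26 ± 0.25 on the log2 scale, and that from C57BL/6J wild type -0.04 ± 0.25 (95% interval -0.62 to 0.54). The 3 tested torsin relatives and partners, Tor1b, Tor2a and Tor1aip2, had log2 differences of 0.09, -0.16 and 0.02 in C3H/HeJBir, and none of the 3 passed. The other Tor3a probe set, 161277_r_at, was not tested and read 0.82 to 3.91.

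Type I interferon-induced genes, which belong to antiviral defence, were read beside Tor3a. Over 11 tested members the median log2 difference was -0.81 in C3H/HeJBir (Il10-null minus wild type), with 10 negative and 0 passing, and 0.17 in C57BL/6J, with 10 positive and 0 passing. Between the wild types, C3H/HeJBir minus C57BL/6J, the median was 1.36 with 11 of 11 positive and 0 passing (smallest limma adjusted p = 0.0635). Over all tested probe sets the medians of these comparisons were -0.01, -0.01 and -0.02. Summarised by pool, as the median deviation from each gene's mean, the list stood at 0.44 and -0.47 in Il10-null C3H/HeJBir pools against 0.77 and 0.66 in C3H/HeJBir wild type, and at -0.41 and -0.14 in Il10-null C57BL/6J pools against -0.40 and -0.49 in C57BL/6J wild type. The sample 1 C3H/HeJBir Il10-null pool was thus high on the list and not on Tor3a. The part of the interferon genes in the Tor3a difference was not tested.

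**Figure D2:**
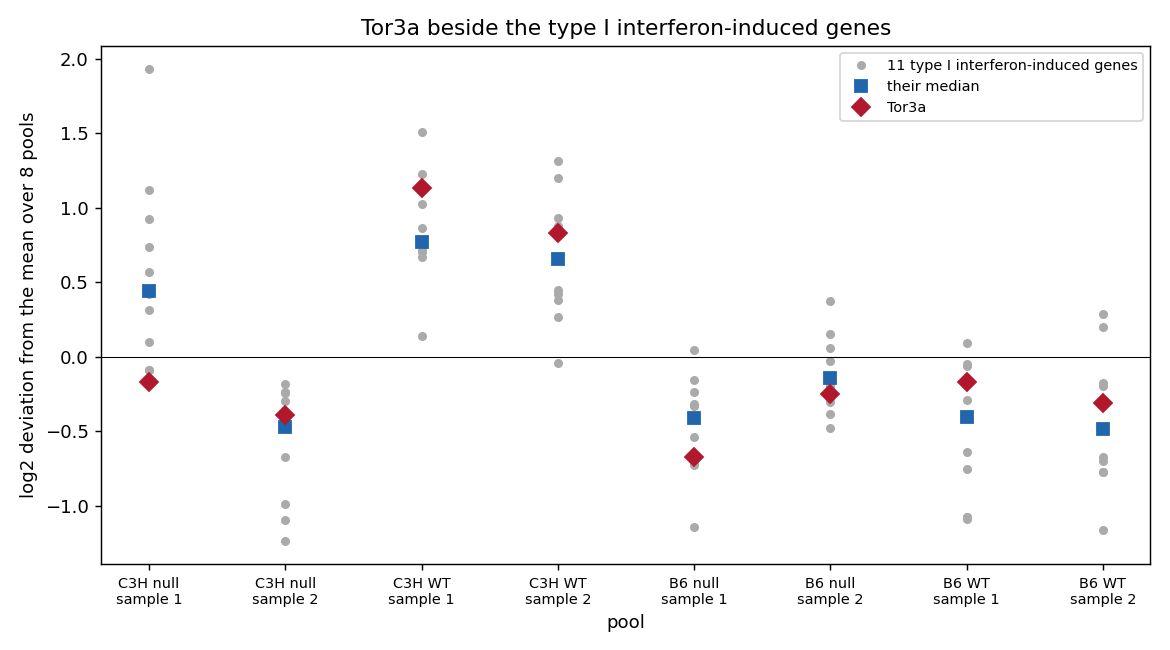
Log2 deviation from the mean over 8 pools, for 11 type I interferon-induced genes (grey), their median (blue squares) and Tor3a (red diamonds), by pool. Both are high in the C3H/HeJBir wild-type pools, and they part in the C3H/HeJBir Il10-null pool of sample 1, where the list stands at 0.44 and Tor3a below 0.

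The probe sets closest in profile over the 8 arrays were found for the brightest probe set of each of these 3 genes, by the root mean square difference of mean-centred log2 values. For Gas5, whose own profile had a root mean square of 1.48, the closest was Qsox1 (96603_at) at 0.744, followed by Prdx2 of chromosome 8 at 0.982 and Meg3 of chromosome 12 at 0.998. For Tor3a (0.590) the closest were Ifi27l2a at 0.199, Igha at 0.286 and Mx2 at 0.305, of which Ifi27l2a and Mx2 are on the interferon list and Igha encodes the heavy chain of immunoglobulin A. For Qsox1 (0.771) they were Gm10046 at 0.431, Krt17 at 0.433 and Agtrap at 0.435. Of these 9 probe sets, the Qsox1 one was the only one on chromosome 1.

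Ramp1 and Twist2, on the other side of Il10, also read nearer to C57BL/6J wild type in Il10-null C3H/HeJBir pools, and Twist2 had a wider spread. Ramp1, which joins the calcitonin receptor-like receptor to form the receptor of the neuropeptide CGRP, read 619 and 891 in Il10-null C3H/HeJBir pools against 1259 and 1168 in C3H/HeJBir wild type. It read 578 and 597 in Il10-null C57BL/6J pools and 852 and 658 in C57BL/6J wild type. The C3H/HeJBir wild-type pools lay above the other 6. The log2 difference was -0.70 ± 0.26 from C3H/HeJBir wild type and -0.01 ± 0.26 from C57BL/6J wild type (95% interval -0.61 to 0.59). Over the other settings tried these ranged from -0.96 to -0.39, the smallest within the sample 2 pools, and from -0.27 to 0.43.

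Twist2, a transcription factor of mesenchymal cells, read 112 and 109 in Il10-null C3H/HeJBir pools against 42.9 and 30.1 in C3H/HeJBir wild type. It read 69.3 and 71.2 in Il10-null C57BL/6J pools, and 138 and 35.5 in C57BL/6J wild type. The 2 C57BL/6J wild-type pools differed more from each other than the C3H/HeJBir groups did, so the log2 difference of 0.54 ± 0.47 from them places the Il10-null level poorly (95% interval -0.54 to 1.63). The difference from C3H/HeJBir wild type was 1.36 ± 0.47 and ranged from 0.84 to 1.88 over the other settings tried. Fibroblast markers, 8 tested, had a median deviation of -0.56 and 0.27 in Il10-null C3H/HeJBir pools against 0.11 and -0.02 in C3H/HeJBir wild type, and smooth muscle markers, 9 tested, -0.61 and 0.28 in Il10-null against 0.10 and -0.13 in wild type. Their summed intensity ran from 3393 to 6131 and from 10031 to 17637 in Il10-null C3H/HeJBir pools, against 5281 to 5288 and 12896 to 15340 in C3H/HeJBir wild type. Their part in the Ramp1 and Twist2 differences was not tested. In whole tissue, fewer cells of a type and less RNA per cell cannot be told apart. Of the 4 tested partners of Ramp1 and the 7 of Twist2, 0 passed in C3H/HeJBir. Ramp3, a sister of Ramp1, differed by 0.68 and Tcf12, a partner of Twist2, by -0.60.

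Btg2 had another pattern. It is an antiproliferative factor that binds the CCR4-NOT deadenylase and is induced early by growth and stress signals. It read 325 and 359 in Il10-null C3H/HeJBir pools, against 774 and 922 in C3H/HeJBir wild type. It read 693 and 748 in Il10-null C57BL/6J pools and 741 and 906 in C57BL/6J wild type. Both Il10-null C3H/HeJBir pools lay far below all other 6 pools, the lowest of which read 693. The log2 difference was -1.28 ± 0.23 from C3H/HeJBir wild type, -1.23 ± 0.23 from C57BL/6J wild type (95% interval -1.76 to -0.71) and -1.05 ± 0.23 from Il10-null C57BL/6J pools. The wild types read 848 ± 104 in C3H/HeJBir and 824 ± 117 in C57BL/6J (SD, n = 2 each), a log2 difference of 0.04 ± 0.23.

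Other immediate early genes did not go with Btg2. Of 14 tested, 11 had a positive log2 difference in C3H/HeJBir, with a median of 0.21 and 0 passing. The median was 0.25 between the sample 1 pools and only 0.006 between the sample 2 pools. Atf3, a stress-induced transcription factor that is also on chromosome 1, 1132 places after Il10, differed by 0.77 and Fos by 0.73. The 6 tested relatives and partners of Btg2 in the BTG/TOB family and the CCR4-NOT complex had a median of -0.01 with 0 passing, among them Cnot3 at 0.41 and Btg1 at -0.28.

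Nr5a2 (102932_at), Arpc5 and Acbd6 were likewise lowest in Il10-null C3H/HeJBir pools, at lower intensity. Nr5a2 is a nuclear receptor of crypt cells and of exocrine pancreas. Its probe set 102932_at read 5.88 and 16.0 in Il10-null C3H/HeJBir pools against 35.4 and 50.03 in C3H/HeJBir wild type, and 23.0 and 75.6 in Il10-null C57BL/6J pools against 46.7 and 59.2 in C57BL/6J wild type. The log2 difference was -1.31 ± 0.44 from C3H/HeJBir wild type and -1.57 ± 0.44 from C57BL/6J wild type (95% interval -2.58 to -0.56). Over the other settings tried, the first of these ranged from -1.82 to -0.56. The brighter probe set 103728_at differed less, at 84.5 and 134.7 in Il10-null C3H/HeJBir pools against 136 and 168 in C3H/HeJBir wild type (log2 -0.46 ± 0.28, or -0.15 without the sample 1 Il10-null pool and -0.76 without the sample 2 one). The exocrine pancreas markers stood at 1.88 and -0.87 in Il10-null C3H/HeJBir pools against 0.25 and 0.36 in wild type, as median deviation of 8 tested members, while 102932_at was low in both Il10-null pools. Their part was not tested. Of 3 tested partners and targets of Nr5a2, 0 passed, with Slc10a2, the bile acid transporter, at -0.32 and Nr1h4, the bile acid receptor, at 0.14.

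Arpc5, a subunit of the Arp2/3 complex that branches actin filaments, read 104 and 89.1 in Il10-null C3H/HeJBir pools against 153 and 149 in C3H/HeJBir wild type. It read 156 and 200.3 in Il10-null C57BL/6J pools and 151 and 120.0 in C57BL/6J wild type. The log2 differences were -0.60 ± 0.24 from C3H/HeJBir wild type and -0.44 ± 0.24 from C57BL/6J wild type (95% interval -0.99 to 0.11), both smaller than those of Btg2. Of the other 5 tested subunits 0 passed in C3H/HeJBir, with a median of 0.05; Arpc5l, the paralogue of Arpc5, differed by -0.30 and Actr3 by 0.24.

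Acbd6, which binds long-chain acyl-CoA, read 21.0 and 26.4 in Il10-null C3H/HeJBir pools against 69.6 and 51.1 in C3H/HeJBir wild type. It read 43.3 and 46.6 in Il10-null C57BL/6J pools and 44.1 and 31.2 in C57BL/6J wild type. The log2 differences were -1.03 ± 0.25 and -0.48 ± 0.25 (95% interval -1.06 to 0.10), so the C57BL/6J wild type lay between both C3H/HeJBir groups. Over the other settings tried the first ranged from -1.25 to -0.54 and the second from -0.67 to -0.17. Dbi, the one other tested acyl-CoA binding protein, differed by 0.12 in C3H/HeJBir and did not pass.

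**Figure D3:**
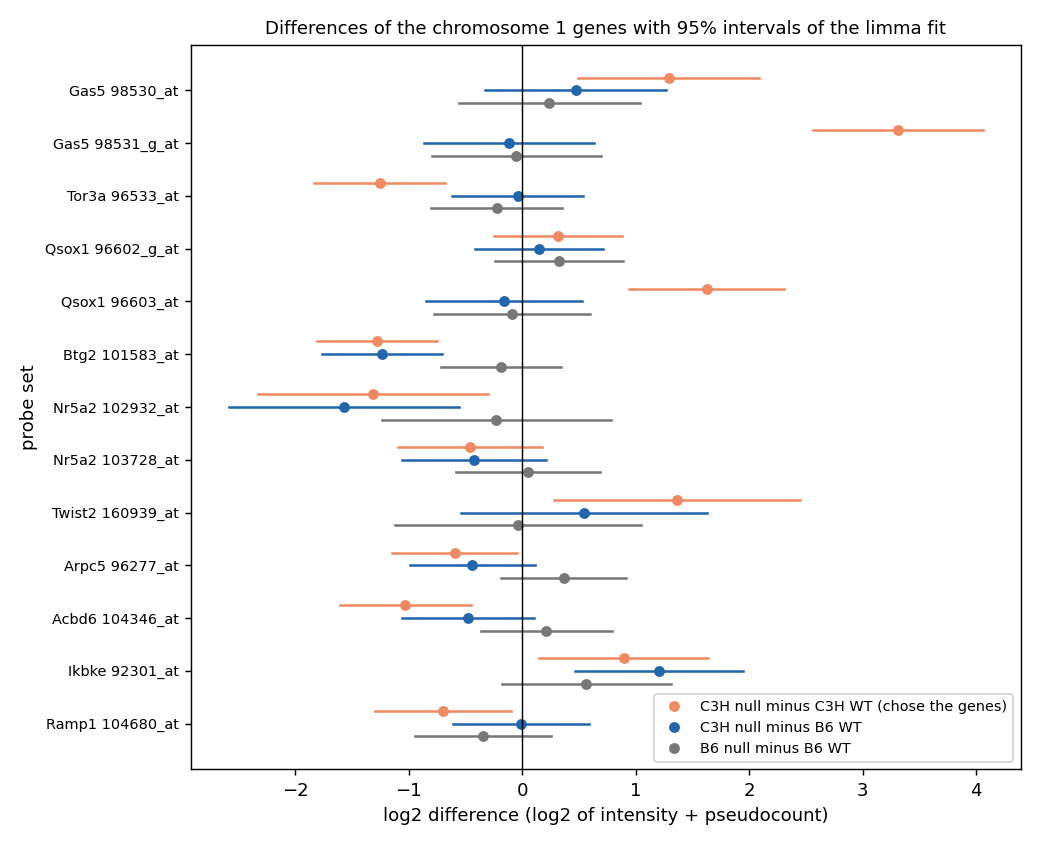
Log2 differences of the 13 tested probe sets with the 95% intervals of the limma fit: C3H/HeJBir Il10-null minus C3H/HeJBir wild type (orange, the contrast that chose the genes), C3H/HeJBir Il10-null minus C57BL/6J wild type (blue) and C57BL/6J Il10-null minus C57BL/6J wild type (grey). For Gas5, Tor3a, Qsox1 and Ramp1 the blue points lie close to 0, for Btg2 the blue and orange points lie close together at -1.23 and -1.28, and the grey intervals all include 0.

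Ikbke, the member closest to Il10, encodes a kinase related to TBK1 that activates interferon regulatory factors. It read 148 and 115 in Il10-null C3H/HeJBir pools against 58.0 and 73.1 in C3H/HeJBir wild type, and 62.6 and 101 in Il10-null C57BL/6J pools against 37.5 and 66.9 in C57BL/6J wild type. Both Il10-null C3H/HeJBir pools were above the other 6. The log2 difference was 0.90 ± 0.32 from C3H/HeJBir wild type and 1.21 ± 0.32 from C57BL/6J wild type (95% interval 0.46 to 1.95). The first was 0.59 within the sample 2 pools. In C57BL/6J the Il10-null pools read higher than wild type in both sample numbers, by 0.60 and 0.52, and the difference of 0.56 ± 0.32 did not pass. Of 9 tested genes of TBK1 and IKK signalling, 0 passed in either strain. Irf7, a target of this kinase, differed by -0.58 in C3H/HeJBir and -0.46 in C57BL/6J.

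The genes next to Il10 were read for comparison, chosen by place and not by value: the 10 nearest on each side with a tested probe set, from Tmem37, 108 places before Il10, to Mdm4, 59 places after it, with Ikbke among them. None of these 20 genes passed in any of the 5 comparisons, where the share of all tested probe sets that passed was 0.0134% for the Il10 effect in C3H/HeJBir, 0% for that in C57BL/6J, 0.456% for Il10-null C3H/HeJBir against C57BL/6J wild type, 0.402% between the wild types and 0.295% between the Il10-null strains. In C3H/HeJBir, Il10-null minus wild type, their log2 differences ran from -0.36 to 0.90 with a median of -0.02, against -0.01 over all tested probe sets. The 0.90 is that of Ikbke, which was chosen on this contrast, and the next highest was 0.40 at Tmem37. Apart from Ikbke none of the 20 had an unadjusted p under 0.05, where 2.83% of all tested probe sets had one. Mapkapk2, the immediate neighbour and a kinase of cytokine mRNA control, read 489.7 and 433 in Il10-null C3H/HeJBir pools against 428 and 381 in C3H/HeJBir wild type. Pigr, the transporter of immunoglobulin A 6 places before Il10, read 11826 and 10710.0 in Il10-null C3H/HeJBir pools against 10556 and 9361 in C3H/HeJBir wild type. Between the wild types these 20 genes differed by -0.24 to 0.53, C3H/HeJBir minus C57BL/6J, with the smallest p at Ctse, cathepsin E (log2 0.53, limma adjusted p = 0.944). Where the wild types read alike, the Il10-null level cannot be placed with 1 of them. Where they differ, a level near 1 wild type does not show that the DNA came from that strain. The strain of the embryonic stem cells is not known here.

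In Il10-null C3H/HeJBir pools 11 of the 13 tested probe sets lay closer, as mean log2, to the wild type of C57BL/6J than to their own. The share was 44.8% over all tested probe sets and 73.0% over those with an unadjusted p under 0.05 in the contrast that chose the genes. For 7 of 13, in 7 genes, both Il10-null C3H/HeJBir pools lay outside all 4 wild-type pools, against 9.55% of all tested probe sets and 40.9% of the 23.3% whose C3H/HeJBir groups did not overlap. The choice of the genes sets part of these counts, and nothing is read from them. The 2 closer to C3H/HeJBir wild type were Ikbke and Nr5a2 (102932_at).

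The Il10 effect within C57BL/6J is a difference between pools that the choice of the genes did not use, although its error is estimated over all 8 arrays, and it asks whether they also differed with the genotype in the other strain. Of the 13 tested probe sets 0 passed (limma, smallest adjusted p = 1.00), 0 had an unadjusted p under 0.05, and their log2 differences ran from -0.34 at Ramp1 to 0.56 at Ikbke. In this comparison 0% of 7454 probe sets passed and 1.58% had an unadjusted p under 0.05. Positive differences were found in 6 and negative ones in 7, with a median of -0.03 against -0.01 over all tested. The pools of the groups did not overlap for 3 of 13, against 26.2% of all tested: Arpc5 (156 and 200.3 in Il10-null against 151 and 120.0 in wild type), Qsox1 96602_g_at (68.8 and 73.2 in Il10-null against 55.7 and 53.4 in wild type) and Ramp1 (578 and 597 in Il10-null against 852 and 658 in wild type). The 95% intervals of all 13 included 0. They reached from -0.80 to 0.70 for Gas5 (98531_g_at), from -0.94 to 0.25 for Ramp1 and from -0.18 to 1.31 for Ikbke. Whether the Il10 effect differed between the strains was not tested.

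The strain difference between the wild types was read along the whole chromosome, since a gene tells the strains apart only where the wild types differ. Of 354 tested probe sets of chromosome 1, 6 passed between C3H/HeJBir and C57BL/6J wild type (1.69%, against 0.402% of all 7454 tested): Snhg6, Gas5, Rgs5, Itln1, Ifi202b and Mptx1. Gas5 shares its C3H/HeJBir wild-type arrays with the contrast that chose it. Between the Il10-null strains, 4 of the 6 also passed (limma adjusted p = 0.0179 to 0.0199), where 0.295% of all tested probe sets passed. Both calls use 1 error estimated over all 8 arrays and are not independent. Snhg6, another snoRNA host far before Il10 in gene order, had a log2 difference of -2.47 between the Il10-null strains and -2.50 between the wild types. Rgs5, a regulator of G protein signalling in pericytes, had -2.17 and -2.41, Ifi202b, an interferon-inducible DNA binding protein, 2.49 and 2.62, and Mptx1, a secreted pentraxin, 2.65 and 3.02. Ifi202b read 0.50 to 14.8 in the C57BL/6J pools, around the offset of 11.07, and passed the filter of 37.0 only through C3H/HeJBir. Snhg6 read 31.3 to 37.6 in the C3H/HeJBir pools and passed the filter only through C57BL/6J. The log2 sizes of both thus depend on the offset.

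Gas5 had -0.07 ± 0.33 between the Il10-null strains against -3.43 ± 0.33 between the wild types. Itln1, an intelectin, had 3.20 against 4.51 and did not pass between the Il10-null strains (limma adjusted p = 0.0622). In gene order, Rgs5 at 645 places after Il10 and Itln1, Ifi202b and Mptx1 at 737 to 843 places lay beyond Gas5 at 472. Qsox1 (96603_at) and Tor3a, at 389 and 409 places, had log2 differences of -0.07 and 0.18 between the Il10-null strains against -1.79 and 1.22 between the wild types. Qsox1 and Tor3a were not among the 6 that passed between the wild types, and their values are a description without a test. Gas5, Qsox1 and Tor3a were chosen because their C3H/HeJBir groups differed, which largely fixes that a difference between the wild types is smaller between the Il10-null strains, so nothing is read from their places. The members up to 322 places after Il10 were chosen in the same way, and nothing is read from their places either. Between the Il10-null strains, C3H/HeJBir minus C57BL/6J, Ikbke differed by 0.64 ± 0.32, Btg2 by -1.05 ± 0.23 and Arpc5 by -0.81 ± 0.24. Nr5a2 differed by -1.34 ± 0.44 (102932_at) and -0.47 ± 0.28 (103728_at). None was among the 4 that passed between the Il10-null strains. As they share arrays with the contrast that chose the genes, these values are a description without a test. The wild-type count of 6 was 0 without C57BL/6J wild-type sample 1, 0 without sample 2 of that group, 0 without C3H/HeJBir wild-type sample 1 and 1 without its sample 2. The Il10-null count of 4 was 1 without C57BL/6J Il10-null sample 1, 0 without its sample 2, and 2 without either C3H/HeJBir wild-type pool. It was also 0 with a block on the hybridisation day, 0 with only the compared groups fitted and 1 without a filter.

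**Figure D4:**
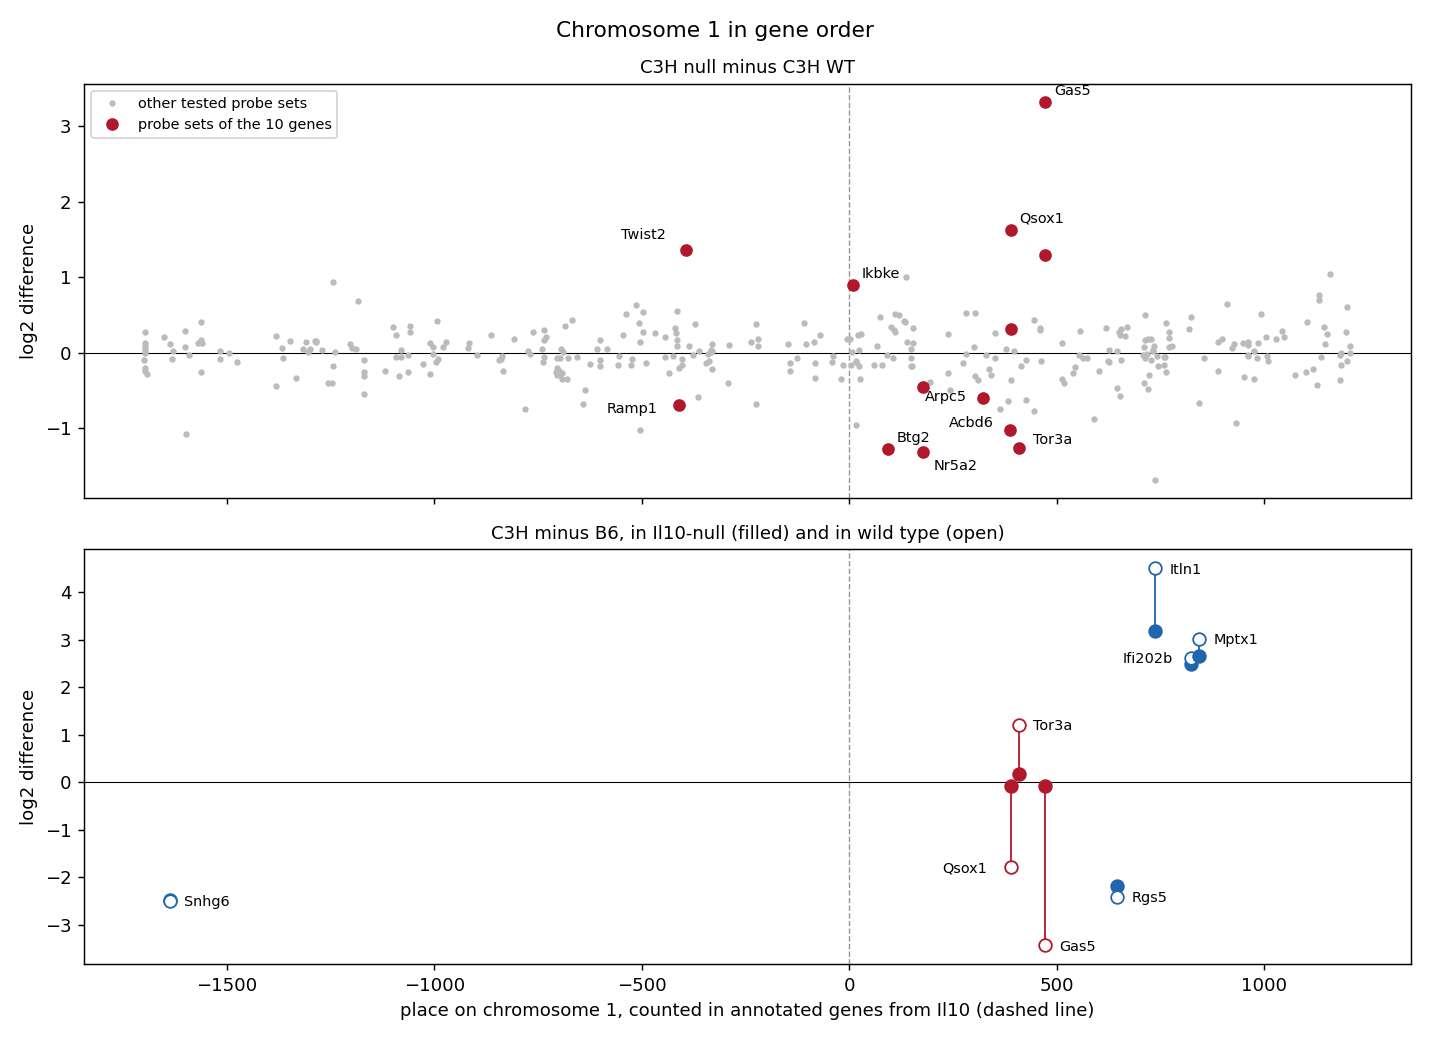
Log2 differences along chromosome 1, by place in the annotated gene order counted from Il10 (dashed line). Upper panel: C3H/HeJBir Il10-null minus wild type for the 354 tested probe sets, with those of the 10 genes in red. Lower panel: C3H/HeJBir minus C57BL/6J between the Il10-null groups (filled) and between the wild types (open), for the 6 probe sets that passed between the wild types and for Qsox1 and Tor3a, which like Gas5 were chosen by their values; the filled points of Gas5, Qsox1 and Tor3a lie near 0, and those of Snhg6, Rgs5, Ifi202b and Mptx1 lie close to their open points.

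Over the 10 lists of relatives and partners of the members, 57 tested genes in all, 0 passed in the Il10 comparison of either strain. The list medians ran from -0.09 to 0.23 in C3H/HeJBir and from -0.14 to 0.28 in C57BL/6J. The marker lists had 0 passing members in these comparisons as well. Their medians in C3H/HeJBir were -0.03 for 10 colon epithelium markers, -0.05 for 9 smooth muscle markers, -0.19 for 8 fibroblast markers, 0.07 for 8 exocrine pancreas markers, 0.56 for 3 neutrophil markers, 0.87 for 3 T and NK cell markers and -0.53 for 6 B and plasma cell markers. These hide unlike pools. The difference between the sample 1 pools and that between the sample 2 pools were 1.81 and -1.39 for exocrine pancreas, 0.18 and -1.32 for B and plasma cell, -0.63 and 0.38 for smooth muscle and -0.51 and 0.20 for fibroblast markers, with opposite signs. They were 1.04 and 0.09 for neutrophil and 1.06 and 0.56 for T and NK cell markers. In C57BL/6J the medians ran from -0.26 for fibroblast to 0.47 for exocrine pancreas markers.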

How the data were processed

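Whole colon RNA was measured on Affymetrix MG_U74Av2 arrays (chip type per the file headers), 1 per pool. The deposited intensity values, 1 per probe set and linear, had been brought by the authors to a common level (means trimmed by 2% differed by a ratio of 1.01); how probes were summarised was not stated in the labels or headers. The deposited files of hybridisation settings, of unit other, gave 3 days, 1 of them holding all sample 2 pools. An offset of 11.07, the 20th percentile, was added before taking log2, for the 7454 probe sets with a mean of at least 37.0, the 40th percentile. Of 12422 probe sets, 10833 carried 1 symbol, 396 several and 1193 none; 10817 were matched by gene number to RefSeq (GRCm38.p6), used for names and gene order. Means of 4 groups were modelled by limma (version 3.58.1, R version 4.3.3; two-sided, Benjamini-Hochberg over all tested probe sets, threshold 0.05) and checked on simulated data. Pools are called independent replicates in the labels, so p values cover only pool-to-pool spread. In every group that spread includes the sample number, with which Xist and the hybridisation day changed. In lists, the brightest probe set stood for its gene. Named were all probe sets of the 10 genes, Il10, neighbours of Il10 that pass or have the smallest p, list genes that pass or have the 2 largest differences, and the 3 probe sets closest in profile to Gas5, Tor3a and Qsox1. Mapkapk2, Pigr, Car1, Lgals4, Xist, and the strain-separated genes of chromosome 1 with the profile of the whole chromosome, were added after their values were seen, as was the search for the cyclic AMP element. The members and lists (19 lists, 198 genes, 128 tested) were chosen with earlier results of these data known.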

Additional observations from a re-analysis of the deposited data

Results flagged for a closer look

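For 2 of the 13 tested probe sets the Il10-null minus wild-type difference had opposite signs in the strains in both sample numbers. Qsox1 (96602_g_at), Btg2, Ikbke and Ramp1 had the same sign in both strains in both sample numbers. The C3H/HeJBir groups did not overlap for any of the 13, so the choice of the genes largely fixed the C3H/HeJBir signs. The share over all tested probe sets was not computed, and nothing is read from the count of 2. Some values of these 2 probe sets were near 0 in C57BL/6J. Gas5 (98531_g_at) was higher in both C3H/HeJBir Il10-null pools than in the wild-type pool of the same number. In C57BL/6J it differed by only -0.09 and -0.01 between pools of the same number. Over the other settings tried, its C57BL/6J difference ranged from -0.27 to 0.16, so its sign was not stable. The Il10 effect in C3H/HeJBir minus that in C57BL/6J was 3.36 on the log2 scale, and the C57BL/6J part was -0.05. Arpc5 was lower in both C3H/HeJBir Il10-null pools and higher in both C57BL/6J Il10-null pools, in C57BL/6J by 0.04 and 0.69. Its difference of the effects was -0.96. Neither difference was tested, since the C3H/HeJBir contrast chose the genes.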

How the results depend on the processing

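Of 1205 recomputed log2 values of single probe sets, 49 changed sign. By comparison, 0 of 241 did so in C3H/HeJBir (Il10-null minus wild type) and 16 of 241 in C57BL/6J (Il10-null minus wild type). For C3H/HeJBir Il10-null minus C57BL/6J wild type it was 16 of 241. Between the wild types it was 7 of 241 and between the Il10-null strains 10 of 241. The C3H/HeJBir groups did not overlap for any of the 13 tested probe sets. The choice of the genes thus largely fixed the 0, and nothing is read from it. The C57BL/6J values were judged only by whether a probe set came to pass, and 0 did, so their shifts were not set against the spread. In the other comparisons 50 values moved by the spread between pools or more, and the rest by less. The C57BL/6J count of members that passed was 0 in every alternative, and so was that of the 20 neighbours of Il10. With a replicate block on the sample number (whose pools deviated together, at correlations of 0.198 to 0.332 over 6 pairs of groups) the counts were 0 members in C57BL/6J, 0 neighbours, 11 of 13 members closer to C57BL/6J wild type, and 7 and 4 probe sets of chromosome 1 passing between the wild types and between the Il10-null strains, so the block moved no count by over 1.5 times. With a filter at the 60th percentile only 7 member probe sets were tested, and all 7 lay closer to C57BL/6J wild type. The share over all probe sets at that filter was not computed. The Il10-null strain count on chromosome 1, 4, was 0 with a block on the hybridisation day, 0 with only the compared groups and 1 without a filter; the cause was not tested. Leaving out each pool in turn gave 0 to 4 for this count, 0 to 8 for the wild-type count of 6, 8 to 11 for the members closer to C57BL/6J wild type, and 7 to 10 for the members outside all wild-type pools. The count of members outside all wild-type pools can only stay or rise when a pool is left out, so its range checks nothing. With fewer than 2 pools left in a group, the lone pool is assumed to vary like the others. The pairs of 2 pools limit every comparison.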
